A study of Mus musculus with 7 samples.

Results

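The 10 genes described here encode apolipoproteins, the proteins that coat lipid particles in blood. They are Apoa1, Apoc3, Apoa4 and Apoa5, which lie side by side on chromosome 9 (the Apoa1 cluster), Apoe, Apoc1 and Apoc2, which lie side by side on chromosome 7 (the Apoe cluster), and the single genes Apob, Apoa2 and Apoh. All peaks that touched the annotated span of a gene extended by 50 kb on each side were taken. This gave 79 of 76683 CTCF peaks and 88 of 67369 Rad21 peaks, and 56 of the 52436 CTCF sites that the authors sorted into classes. The 10 are among 22367 protein-coding genes on the autosomes, X and Y (GENCODE vM1 annotation, genome build mm9).

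Livers of male CD-1 mice (strain Crl:CD1(ICR)) of 8 weeks of age were used, with no treatment and no altered gene named in the labels. Chromatin immunoprecipitation and sequencing (ChIP-seq) gave 4 libraries for CTCF and 3 for Rad21, which is part of the cohesin ring. The files hold 1 pooled peak list for each factor, so no value per library could be given and no spread between livers could be measured. Intervals below cover counting error only (95%, exact Poisson for counts and densities, Wilson for shares), and no test between loci was made. Nuclei came from whole liver, and a peak seen in a part of the cells cannot be told apart from a weaker peak in all of them.

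Apolipoproteins are made mainly by hepatocytes and by the intestine. Apoa1 and Apoa2 are the main proteins of high-density lipoprotein, Apob is the structural protein of very-low-density and low-density lipoprotein, and Apoe is a ligand of lipoprotein receptors. Apoc1, Apoc2, Apoc3 and Apoa5 tune lipolysis and particle uptake, with Apoc2 as the cofactor of lipoprotein lipase, Apoc3 as its antagonist and Apoa5 as an activator. Apoa4 is a lipid-binding protein made largely after fat intake, and Apoh, also called beta-2-glycoprotein I, binds phospholipids. CTCF binds a directional DNA motif and halts the cohesin ring, which extrudes chromatin loops, so that loops tend to end at a pair of CTCF motifs that point at each other. Sites with cohesin and CTCF are called CAC sites below, and Rad21 peaks with no CTCF peak are called cohesin-non-CTCF (CNC) sites. Topologically associating domains (TADs) are large stretches of chromatin that contact themselves more than their surroundings, and the authors named CTCF sites at their ends TAD anchors and sites at the ends of loops predicted inside them intra-TAD anchors.

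The CTCF motifs under the strongest site of each cluster, of Apob and of Apoh, and under the anchor closest to Apoa2, are shown first, because the layout of the loci rests on their strength and direction. Each is read from the mm9 genome on the strand of the motif, 5′ to 3′, and capitals mark the 19 bases matched to the CTCF matrix MA0139.1. The strongest anchor of the Apoe cluster is shown as well, because its strongest site is no anchor. The motif inside Apoa1 and the left anchor of the Apoa1 cluster were added after their values were seen, to show a site in a coding exon and the partner of the right anchor.

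Apoa1 cluster, left intra-TAD anchor, (+) strand, chr9:45994613-45994671: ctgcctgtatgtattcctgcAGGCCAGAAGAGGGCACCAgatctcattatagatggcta
Apoa1 cluster, site in Apoa1, (+) strand, chr9:46038084-46038142: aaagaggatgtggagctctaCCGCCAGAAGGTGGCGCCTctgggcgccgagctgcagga
Apoa1 cluster, right TAD anchor, (−) strand, chr9:46122727-46122785: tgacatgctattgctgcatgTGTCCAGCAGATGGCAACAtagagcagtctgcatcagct
Apoe cluster, left intra-TAD anchor, (+) strand, chr7:20254392-20254450: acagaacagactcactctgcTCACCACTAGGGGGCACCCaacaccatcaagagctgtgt
Apoe cluster, site upstream of Apoe, (−) strand, chr7:20286586-20286644: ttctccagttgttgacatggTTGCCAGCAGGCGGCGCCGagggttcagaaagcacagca
Apob, TAD anchor in the gene, (−) strand, chr12:7985516-7985574: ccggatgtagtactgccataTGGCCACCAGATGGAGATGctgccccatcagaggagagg
Apoa2, intra-TAD anchor upstream of the gene, (−) strand, chr1:173151107-173151165: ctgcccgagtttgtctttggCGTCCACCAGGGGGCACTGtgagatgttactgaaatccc
Apoh, intra-TAD anchor in the gene, (−) strand, chr11:108239574-108239632: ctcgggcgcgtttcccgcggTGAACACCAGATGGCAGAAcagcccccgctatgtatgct

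These 8 motifs carried the base that the matrix weights most at 12 to 15 of 19 positions. Their deposited motif scores ran from 17.4, in Apoh, to 24.1, at the anchor upstream of Apoa2. The highest motif score did not fall on the strongest of these 8 peaks: the Apob anchor had the highest CTCF peak score among them, 6017, with a motif score of 19.4. A peak score is the −log10 q-value times 10 that the peak caller MACS2 gave, so that a larger score means a peak less likely under the local background.

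The densities of both factors lay above those of the median gene in each locus, apart from the CTCF density of Apob. Over the 682 kb of all windows there were 11.6 CTCF peaks per 100 kb (interval 9.16 to 14.4) and 12.9 Rad21 peaks per 100 kb (interval 10.3 to 15.9). The windows of all protein-coding genes, made the same way, had medians of 5.58 and 4.59 peaks per 100 kb. With only peaks of score at least 100 the densities were 9.08 and 6.74 per 100 kb, against medians of 4.25 and 3.05. The order of the loci was the same for both factors. The Apoa1 cluster had 25 CTCF peaks, or 17.4 per 100 kb (11.3 to 25.7), and Apoa2 had 15, or 14.8 per 100 kb (8.29 to 24.4). The Apoe cluster followed with 16 peaks, or 12.5 per 100 kb (7.17 to 20.4), then Apoh with 16, or 9.35 per 100 kb (5.35 to 15.2), and Apob with 7, or 5.03 per 100 kb (2.02 to 10.4). The intervals of neighbors in this order overlapped, and those of the Apoa1 cluster and Apob did not. With 100 kb on each side Apob lay above the median gene, with 6.69 CTCF peaks per 100 kb (60.3 percentile of all genes), and Apoh had 6.27 (56.8 percentile, against 76.0 with 50 kb). With the score limit Apob fell to 2.16 and the other loci ranged from 7.02 (Apoh) to 14.7 (Apoa1 cluster).

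Rad21 densities ran from 18.1 peaks per 100 kb at the Apoa1 cluster (26 peaks, 11.8 to 26.6) to 7.90 at Apob (11 peaks, 3.95 to 14.1), and these 2 intervals did overlap. With the score limit these densities were 9.77 and 3.59, and those of Apoa2, the Apoe cluster and Apoh were 8.88, 7.05 and 5.26. Apoa2 had 16 Rad21 peaks (15.8 per 100 kb), the Apoe cluster 17 (13.3 per 100 kb) and Apoh 18 (10.5 per 100 kb). The number of genes differed as well: transcription starts of 8 protein-coding genes lay in the windows of the Apoa1 cluster and of Apoa2, 7 in that of the Apoe cluster, 3 in that of Apoh and 1 in that of Apob, which lies alone. The part of gene density in the order was not tested. The limit of 50 kb left out strong sites at some edges. At the Tomm40 side of the Apoe cluster, the last CTCF peak inside lay 8701 bp within the edge with a score of 280, and the first outside lay 578 bp past it with a score of 7047. At the other edge of that cluster the scores were 56 inside and 2894 at 2369 bp outside, and at the right edge of Apoa2 they were 141 inside and 5337 at 5458 bp outside. At the right edges of the Apoa1 cluster and Apob the peak inside was the stronger one, with CTCF scores of 5577 against 344 and 5375 against 61.

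**Figure D1:**
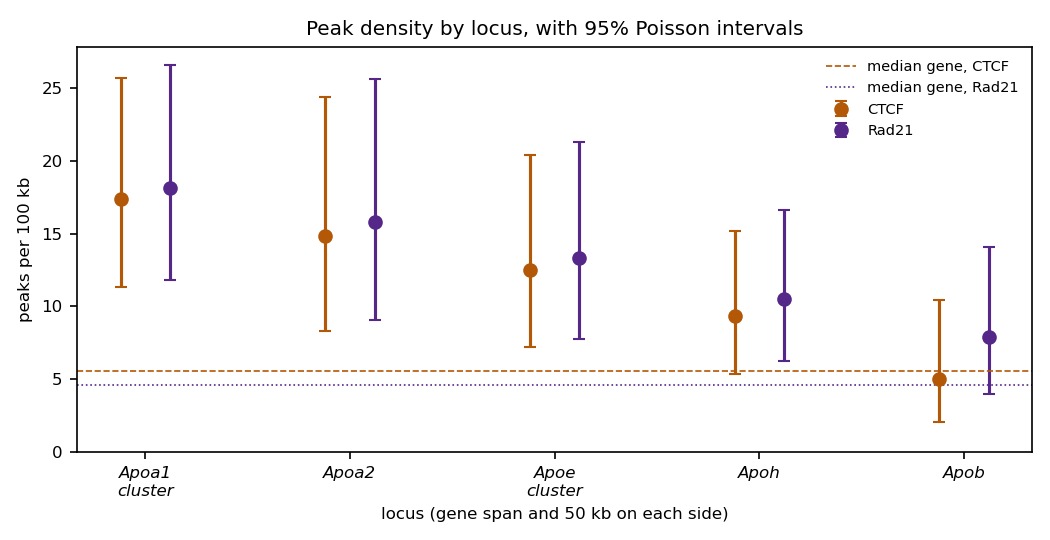
Peaks per 100 kb (y axis) in each locus (x axis, gene span and 50 kb on each side), for CTCF (orange) and Rad21 (purple), with 95% exact Poisson intervals as bars; the broken lines give the median protein-coding gene, 5.58 for CTCF and 4.59 for Rad21. The Apoa1 cluster lies highest for both factors and Apob lowest, and intervals of neighboring loci overlap.

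Taken gene by gene, the window of Apoc3 held 24 Rad21 peaks, or 23.4 per 100 kb, the highest density of any of the 22367 protein-coding genes. Apoa1, with 23 peaks or 22.6 per 100 kb, ranked 4 and Apoa4, with 21 peaks or 20.4 per 100 kb, ranked 17. These windows share most of their peaks, so the ranks count one region several times. Apoa5, at the far end of the cluster, ranked 258 with 16.5 per 100 kb. The 3 genes of the Apoe cluster ranked 626 (Apoe), 634 (Apoc1) and 939 (Apoc2), Apoa2 ranked 361, Apoh 2898 and Apob 5801. When only Rad21 peaks with a score of at least 100 were counted, Apoa1 fell to rank 346, Apoa4 to 1223, Apoa5 to 2059, Apoe to 1247, Apoc1 to 1259, Apoc2 to 3856, Apoa2 to 1128, Apoh to 5898 and Apob to 9950. Apoc3 fell to rank 184 with 11.7 per 100 kb, and with all scores kept it ranked 15 with 25 kb and 67 with 100 kb on each side. Its first place held with neither the score limit nor the other window widths. In CTCF density Apoc3 ranked 58 with 19.5 per 100 kb and rose to rank 11 with 17.5 under the same score limit.

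The local background, against which MACS2 set each summit, was high in both clusters. It is given in fragments, as recovered from the deposited fold and p-value, and whether MACS2 took it from the ChIP reads or from the IgG control that the methods mention is not given in the sources used here. Its median over the CTCF peaks was 24.0 fragments in the Apoe cluster, which is at the 91.1 percentile of all CTCF peaks, and 14.3 in the Apoa1 cluster (73.9 percentile). It was 9.15 at Apoh, 8.50 at Apoa2 and 7.74 at Apob, against a median of 8.87 over all CTCF peaks. For Rad21 the medians were 23.1 in the Apoe cluster (96.1 percentile) and 16.2 in the Apoa1 cluster (88.0 percentile), and all 26 Rad21 peaks of the Apoa1 cluster lay above the overall median of 8.10. The Rad21 background of Apoa2 was 11.2 (71.2 percentile). A score falls as this background rises at an equal number of fragments. Its part in the number and the scores of the peaks was not tested.

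CTCF and cohesin shared most sites. Of the 79 CTCF peaks, 59 (74.7%, interval 64.1 to 83.0) overlapped a Rad21 peak by at least 1 bp, compared with 67.3% of all CTCF peaks, which lies inside the interval. With only peaks of score at least 100 in both lists the shares were 59.7% and 64.4% of all such CTCF peaks. The share was 13 of 15 at Apoa2 (86.7%), 19 of 25 in the Apoa1 cluster (76.0%), 12 of 16 at Apoh (75.0%), 5 of 7 at Apob (71.4%) and 10 of 16 in the Apoe cluster (62.5%). All of these intervals overlap. Of the 88 Rad21 peaks, 29 (33.0%, interval 24.0 to 43.3) overlapped no CTCF peak, and the share over all Rad21 peaks, 22.7%, lies below that interval. With only peaks of score at least 100 in both lists, the shares were 10 of 46 (21.7%, interval 12.3 to 35.6) and 15.5% of all such Rad21 peaks, which lies inside the interval. CNC sites made up 6 of 11 Rad21 peaks at Apob (54.5%), 7 of 18 at Apoh (38.9%), 6 of 17 in the Apoe cluster (35.3%), 7 of 26 in the Apoa1 cluster (26.9%) and 3 of 16 at Apoa2 (18.8%). They were weak: the 29 CNC sites had a median score of 72.0 against 164.0 for the 59 Rad21 peaks with CTCF, and over all peaks the medians were 65.0 and 245.0.

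Of the 56 classified sites, 15 (26.8%, interval 17.0 to 39.6) were anchors, against 28.4% of all classified sites. There were 4 TAD anchors (7.14%, against 11.2% of all classified sites), 11 intra-TAD anchors (19.6%, against 17.3%), 32 other CAC sites (57.1%, against 51.4%) and 9 lone CTCF sites (16.1%, against 20.1%), and each of these intervals holds the share over all sites. Each of the 5 loci held 3 anchors, although they differed in total sites: 3 of 19 in the Apoa1 cluster, 3 of 11 in the Apoe cluster, 3 of 4 at Apob, 3 of 12 at Apoa2 and 3 of 10 at Apoh. The other 23 CTCF peaks were not in the class list, which the authors limited to peaks found in at least 2 livers, and their scores ran from 49 to 287. In these windows 14 of 15 anchors had a pooled Rad21 peak, against 95% of all anchors, and 1 of 9 lone CTCF sites did as well, against 15.8% of all lone CTCF sites. The authors used CTCF and Rad21 strength and motif strand to pick intra-TAD anchors, so neither these signals nor the motif of an intra-TAD anchor is an independent finding. TAD anchors were picked from CTCF peaks found in all livers by motif, strand and distance to a TAD boundary, so their CTCF strength and motifs are none either.

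The Apoa1 cluster lay between anchors whose motifs pointed at each other. On its left, in an intron of Sik3, were 2 intra-TAD anchors on the (+) strand at chr9:45993269-45993703 (CTCF score 1948) and chr9:45994410-45994859 (CTCF score 1876). The second had 286 CTCF fragments at its summit and 110 Rad21 fragments, and its summit was 42054 bp from the first base of Apoa1. On its right, in an intron of 4931429L15Rik, a TAD anchor on the (−) strand at chr9:46122516-46123042 had a CTCF score of 5577, the highest in the cluster, and a Rad21 score of 1300, also the highest. It had 557 CTCF fragments (interval 512 to 605) and 160 Rad21 fragments (136 to 187), and lay 42770 bp past the end of Apoa5. The 2 inner anchors were 128 kb apart, and no anchor lay among the 4 genes.

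The genes of the Apoa1 cluster were themselves bound. Apoa1 (chr9:46036663-46038549, (+) strand) held a CTCF peak in a coding exon at chr9:46037899-46038413, with a score of 3163 and 408 fragments (369 to 450), the strongest CTCF peak within a gene of the cluster. Its motif was on the (+) strand, and the Rad21 peak over it had a score of 598 and 174 fragments (149 to 202), the most Rad21 fragments in the cluster. Downstream of Apoa4, in intergenic DNA, a CAC site with a motif on the (−) strand at chr9:46054788-46055302 had 178 CTCF and 170 Rad21 fragments. The motifs of this pair pointed at each other over 17.0 kb that hold Apoc3 and Apoa4, but neither site was classed as an anchor. The direction of the site downstream of Apoa4 rests on a weak motif. Its motif score was 9.33, whereas the lowest score among the motifs shown above was 17.4. In its test of directional contacts the paper kept only non-anchor sites with a motif score above a limit, and 9.33 lies below it. The pair was picked after its values were seen. The 2 sites differed in their balance, with 0.426 Rad21 fragments per CTCF fragment in Apoa1 (interval 0.355 to 0.511) and 0.955 downstream of Apoa4 (0.769 to 1.19, 88.2 percentile).

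A site between Apoa4 and Apoa5, picked after its values were seen like the others of this paragraph, had little Rad21 for its CTCF. The CTCF peak at chr9:46066861-46067418, 9502 bp upstream of Apoa5, had a score of 2312 and 331 fragments but a Rad21 score of only 66 and 44 fragments, or 0.133 Rad21 fragments per CTCF fragment (0.0948 to 0.182), which is at the 3.58 percentile of 42801 classified sites with Rad21. This site has no CTCF motif in the class list. Between Bud13 and 4931429L15Rik, a CAC site on the (+) strand at chr9:46110020-46110577 had a CTCF score of 4163 and a Rad21 score of 860. In a coding exon of 4931429L15Rik the CTCF peak at chr9:46117172-46117649 had a score of 2332 and 257 fragments and overlapped no Rad21 peak.

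The flanking anchors of the Apoe cluster were closer, 43.5 kb apart. Its genes all read on the (−) strand, from Apoe (chr7:20281458-20284515) through Apoc1 (chr7:20274833-20278007) to Apoc2 (chr7:20256928-20266772), whose annotated span contains Apoc4. At the Apoc2 end, 2518 bp outside the gene, an intergenic intra-TAD anchor on the (+) strand at chr7:20254175-20255228 had a CTCF score of 3413 and a Rad21 score of 2545, with 523 (479 to 570) and 386 (348 to 426) fragments. At the Apoe end, in the intergenic stretch before Tomm40 and 2110 bp upstream of an annotated start of Apoe, a CAC site on the (−) strand at chr7:20286401-20286967 was stronger still. It had a CTCF score of 4637 with 590 fragments (543 to 640) and a Rad21 score of 3408 with 503 fragments (460 to 549), the strongest of the locus for both factors. The 2 summits were 32.2 kb apart and the motifs pointed at each other across the 3 genes. The authors classed the second site as other CAC, and the nearest anchors on that side were 2 weaker (−) strand sites in Tomm40, at chr7:20297765-20298112 (CTCF score 280, Rad21 score 63) and chr7:20298528-20298973 (CTCF score 1610, Rad21 score 661).

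The 2 strongest sites of the Apoe cluster had Rad21 to CTCF ratios of 0.738 (0.645 to 0.843, 76.5 percentile) at the Apoc2 end and 0.853 (0.755 to 0.962, 83.7 percentile) at the Apoe end. Weaker CAC sites there reached 0.721, 0.797 and 0.944. The other 2 anchors of that cluster, in Tomm40, had 0.485 (0.336 to 0.691, 49.8 percentile) and 0.537 (0.433 to 0.664, 56.7 percentile). In the Apoa1 cluster the 3 anchors had ratios of 0.247, 0.385 and 0.287, at percentiles from 16.6 to 36.4, and the intervals at 0.385 (0.306 to 0.481) and at 0.287 (0.239 to 0.343) overlapped that of the first Tomm40 anchor, the former also that of the second. The intervals of the strongest sites of the 2 clusters, 0.755 to 0.962 and 0.239 to 0.343, did not overlap. The ratio depends on the depth of both pooled lists, so only its order among sites can be read, and it sets counts at each factor's own summit side by side.

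**Figure D2:**
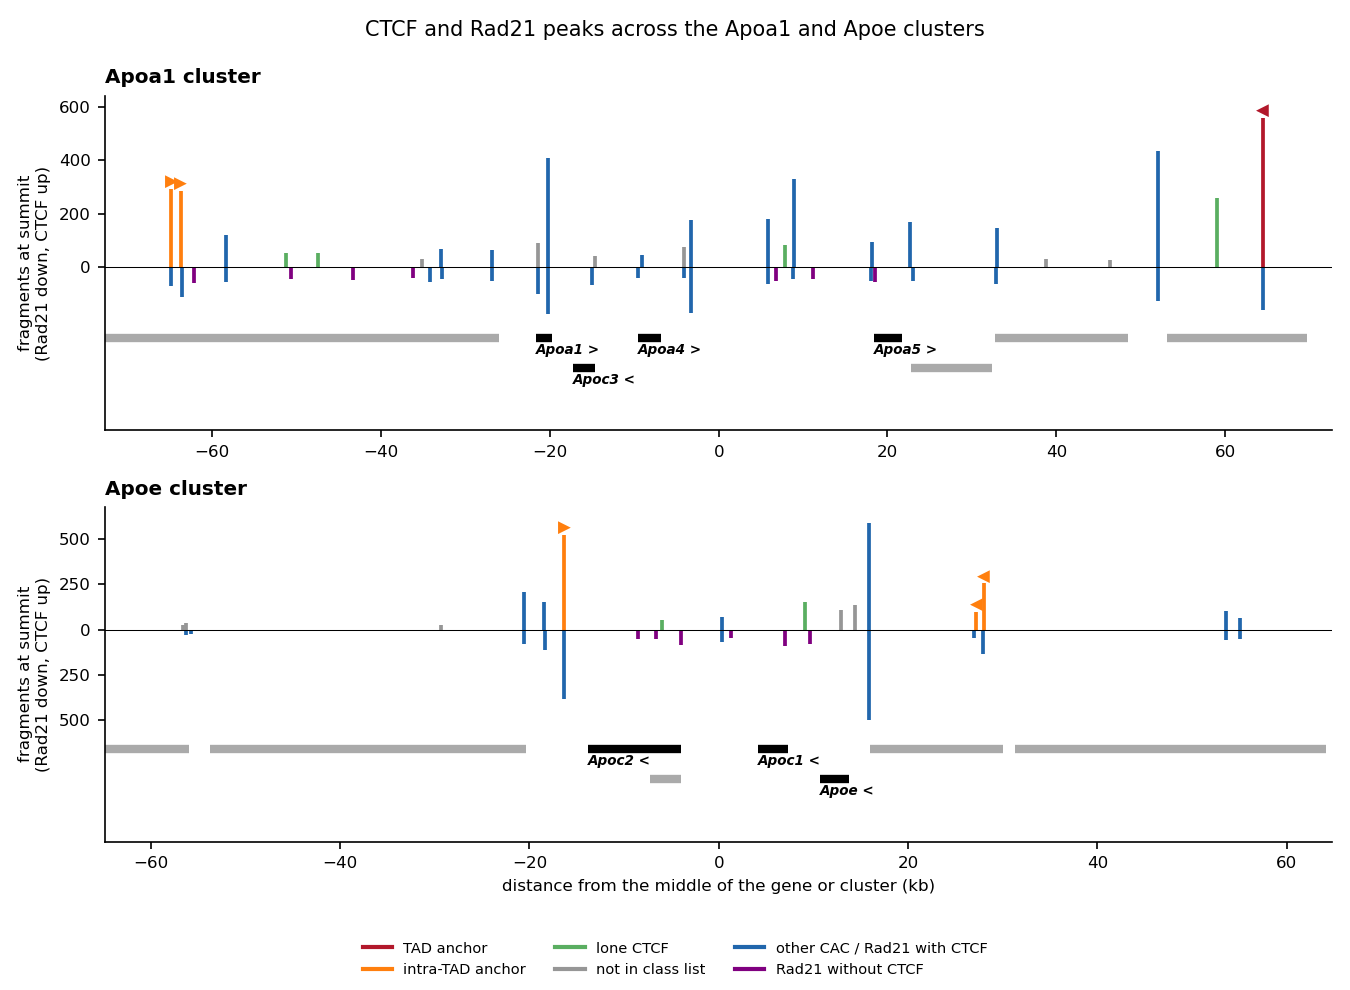
CTCF (up) and Rad21 (down) fragments at each peak summit (y axis) against the distance from the middle of the cluster (x axis, kb) for the Apoa1 and Apoe clusters; colors give the class, arrowheads the motif strand of anchors, and bars the genes, with apolipoprotein genes in black and named. The Apoe genes lie between 2 sites with 523 and 590 CTCF fragments, whereas the Apoa1 genes lie between anchors 128 kb apart and hold a site of 408 CTCF fragments in Apoa1.

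At the single genes, the nearest anchors outside the gene span did not form a convergent pair, but Apob and Apoh hold anchors inside the span. Apob (chr12:7984454-8023641, (+) strand) held 2 TAD anchors in introns. The first, on the (−) strand at chr12:7985321-7985766, had its summit 1104 bp past the first base of the gene span and 973 bp past its nearest annotated start, with a CTCF score of 6017 and 634 fragments (586 to 685), and a Rad21 score of 1826 and 281 fragments (249 to 316). The second, on the (+) strand at chr12:7997574-7998127, had a CTCF score of 2640 and 312 fragments but a Rad21 score of 43 and 28 fragments. Its ratio of 0.0897 (0.0587 to 0.132) was at the 1.07 percentile, the lowest at any of the 47 classified sites with Rad21 in these windows. The 2 motifs pointed away from each other, 12.2 kb apart. The next anchor, on the (+) strand at chr12:8066348-8066752 and 42903 bp past the end of the gene, had a CTCF score of 5375 and the highest Rad21 score of the locus, 2500.

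Apoa2 (chr1:173155185-173156510, (+) strand) is a short gene in a dense row of genes, and no peak of either factor fell inside it. Its 3 anchors were all on the (−) strand. The anchor at chr1:173150892-173151391, in an intron of Tomm40l and 4029 bp before Apoa2, had a CTCF score of 3535 with 470 fragments (428 to 514) and a Rad21 score of 1457 with 282 fragments (250 to 317). Its ratio of 0.600 (0.516 to 0.697) was at the 64.0 percentile. Farther downstream, CAC sites that are no anchors lay in a coding exon and an intron of Adamts4. The first (chr1:173186224-173186712) had a CTCF score of 2712 and a Rad21 score of 1182, and the second (chr1:173187271-173187692) had 2120 and 1057.

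Apoh (chr11:108204668-108275710, (+) strand) is the longest of the 10 genes at 71043 bp. In an intron it held an intra-TAD anchor on the (−) strand at chr11:108239377-108239885 with the strongest peaks of the locus for both factors, a CTCF score of 5438 with 526 fragments (482 to 573) and a Rad21 score of 5119 with 506 fragments (463 to 552). This Rad21 score was the highest in all windows and at the 99.5 percentile of all Rad21 peaks. The CTCF summit of this anchor lay 2868 bp upstream of an internal start of Apoh, so the anchor is inside the span only through the upstream start. Past the gene, in introns of Ccdc46, were 2 anchors on the (+) strand. The intra-TAD anchor at chr11:108308453-108308874 had a CTCF score of 1104 and overlapped no Rad21 peak, and the TAD anchor at chr11:108311089-108311517 had a CTCF score of 3036 and a Rad21 score of 1248. No further CTCF peak lay within 288070 bp of the right edge of the window, where the nearest outside peak had a score of 204.

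**Figure D3:**
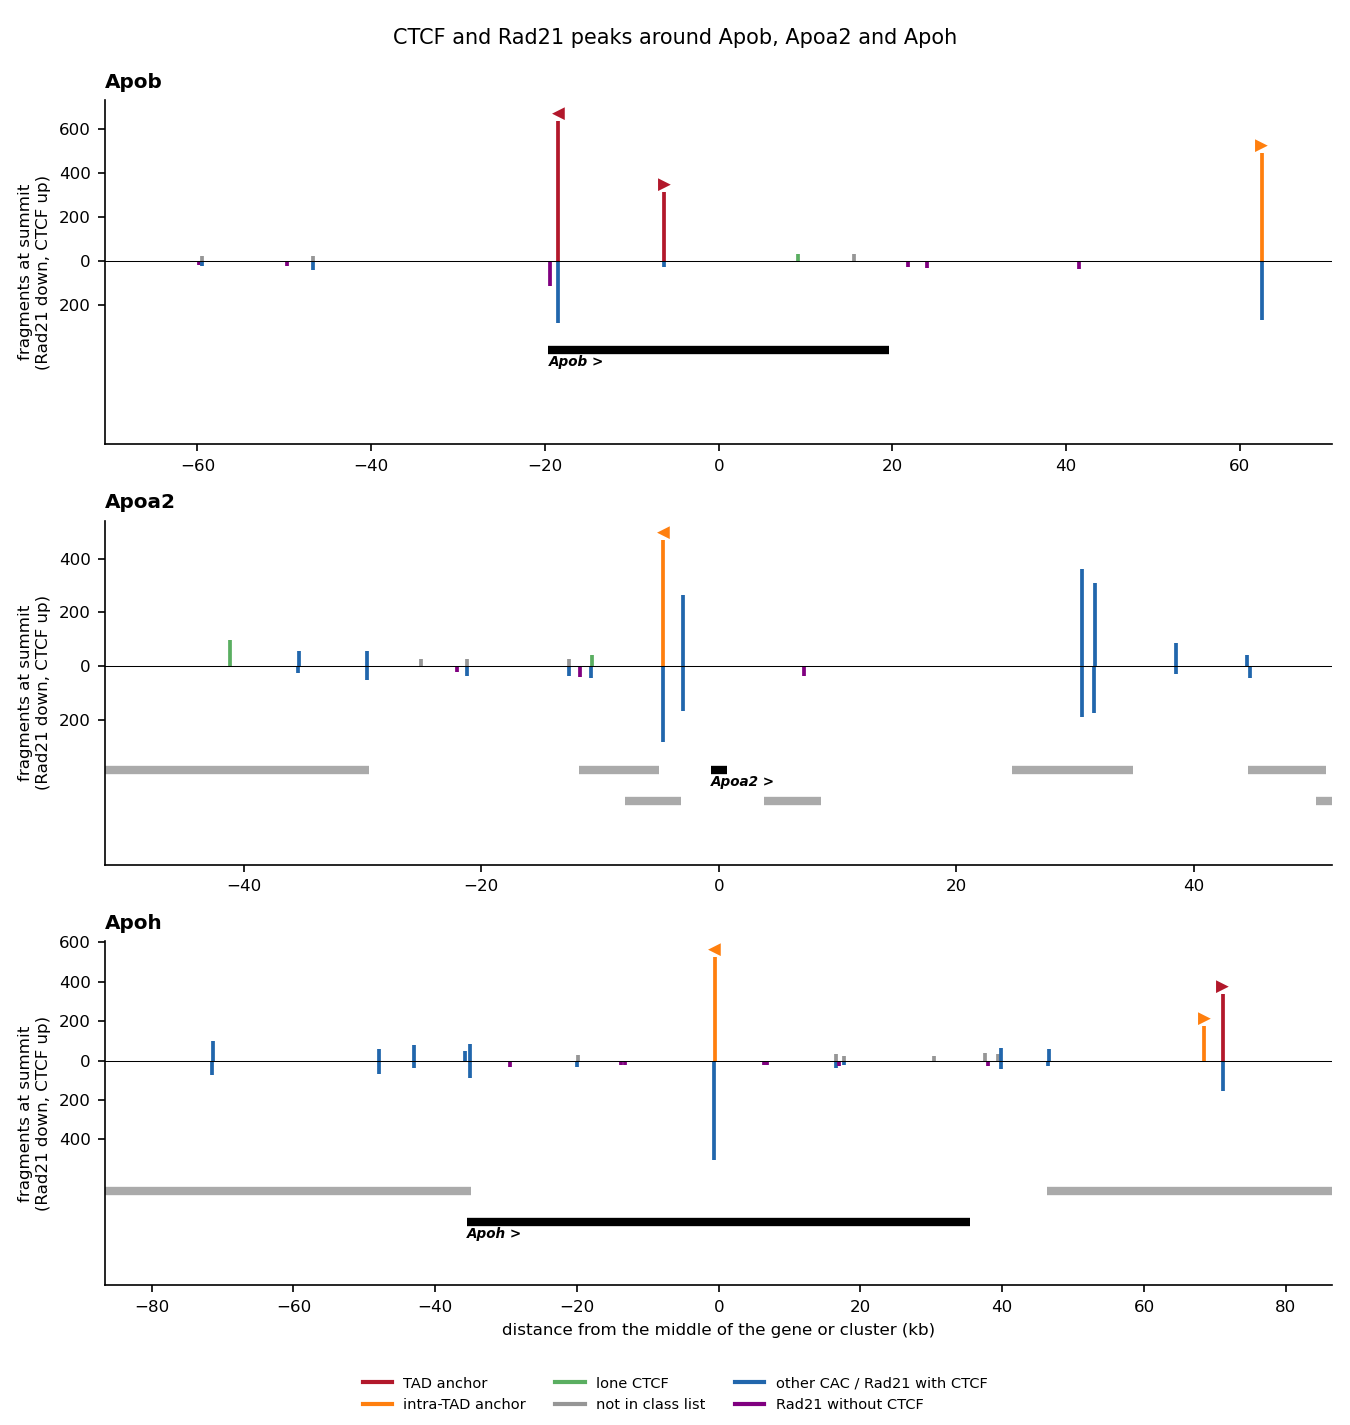
CTCF (up) and Rad21 (down) fragments at each peak summit (y axis) against the distance from the middle of the gene (x axis, kb) for Apob, Apoa2 and Apoh, with colors, arrowheads and bars for class, motif strand and genes, the apolipoprotein genes in black with their names; 2 sites near Apoa2 and the gene they lie at are not drawn. Apob and Apoh hold strong anchors in their introns (634 and 526 CTCF fragments), whereas Apoa2 has no peak in the gene and an anchor of 470 CTCF fragments on its left.

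The nearest anchors outside the gene span were convergent, with a (+) motif on the left and a (−) motif on the right, for 7 of 10 genes. Over the 21990 protein-coding genes with an anchor on both sides the share was 32.8%. The 7 genes were the members of both clusters, and since the genes of a cluster share their anchors this is 2 cases and not 7. The order was (+) and (+) at Apob and at Apoh, and (−) and (−) at Apoa2. The left anchors that set it lay far off at Apob (72052 bp, chr12:7912244-7912553, CTCF score 752) and at Apoh (214623 bp, chr11:107989788-107990297, CTCF score 1234), outside the windows, and the pairs were 154 and 319 kb apart. This order skips anchors inside the gene: around the upstream starts of Apob and Apoh, the same left anchors and the (−) strand anchors in the genes were convergent. This did not hold for internal starts. That of Apoh next to the CTCF peak at chr11:108256480-108256827 lay between the (−) strand anchor in the gene and the (+) strand anchor at chr11:108308453-108308874, which pointed away from each other. The internal start of Apob next to the CTCF peak at chr12:8019513-8019763 had a (+) strand anchor on each side. The authors chose anchors by motif strand, which sets part of the order of neighboring anchors.

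A Rad21 peak lay within 1 kb of an annotated start of 8 of the 10 genes (80.0%, interval 49.0 to 94.3), against 52.3% of all protein-coding genes, and a CTCF peak lay within 1 kb for 7 genes (70.0%, interval 39.7 to 89.2), against 55.1%. Both intervals hold the share over all genes. With only peaks of score at least 100, each factor was there at 6 of the 10 genes, against 44.4% (Rad21) and 50.1% (CTCF) of all genes. Rad21 was missing at this distance from Apoe and Apoa2, and CTCF from Apoc1, Apoc2 and Apoa2. These gaps depend on the limit of 1 kb: within 2500 bp of a start each factor had a peak at all 10 genes. A CNC site lay within 1 kb of a start of 5 genes (Apoa5, Apoc1, Apoc2, Apob and Apoh), against 8.94% of all protein-coding genes. With CNC sites of score at least 100 this held for 3 genes (Apoc1, Apoc2 and Apob), against 2.9% of all genes. Genes with several annotated starts have more chances to meet this limit, and Apoe has 9 starts, Apoc2 5, Apoc3, Apoa2 and Apoh 4 each, Apob 3, Apoa5 and Apoc1 2 each, and Apoa1 and Apoa4 1 each.

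**Figure D4:**
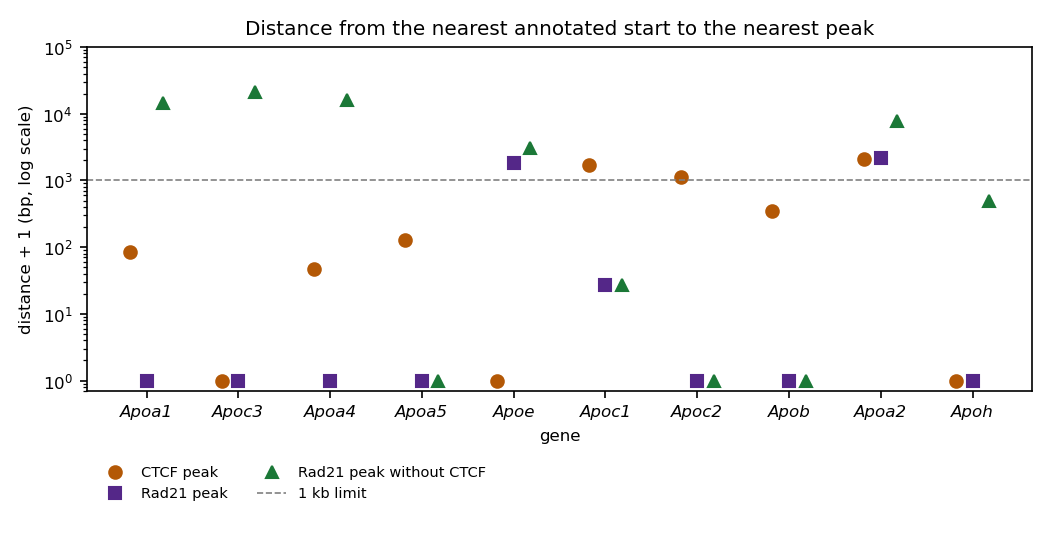
Distance from an annotated start to the nearest CTCF peak (circles), Rad21 peak (squares) and CNC site (triangles) for each gene (x axis), in bp plus 1 on a log axis; the broken line marks 1 kb. Rad21 lies below the line for 8 genes, CTCF for 7 and CNC sites for 5, and Apoa2 has all 3 symbols above it.

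The starts of the first 3 genes of the Apoa1 cluster carried peaks of both factors. At Apoa1 a CTCF peak 85 bp from the start (chr9:46036748-46037028) had a score of 202 and 91 fragments, and the Rad21 peak over the start had a score of 176 and 101 fragments. At Apoc3 the CTCF score was 88 with 41 fragments and the Rad21 score 118 with 68 fragments, both peaks covering a start. At Apoa4 the CTCF peak 46 bp from the start had a score of 146 with 45 fragments, and the Rad21 peak over the start a score of 90 with 42 fragments. The CTCF peaks at the starts of Apoa1 and Apoc3 are not in the class list. At Apoa5 the 2 factors were offset: a CAC site 125 bp upstream had a CTCF score of 341 and a Rad21 score of 91, and a separate CNC site over the start (chr9:46076698-46076952) had a Rad21 score of 95 with 56 fragments (42.3 to 72.7).

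In the Apoe cluster the peaks within 1 kb of a start were of one factor only at each gene. Apoe had 2 CTCF peaks with no Rad21 peak. One lay over annotated starts in a UTR exon (chr7:20283498-20283736, score 141, 110 fragments against a local background of 44.5). The other had its summit 570 bp upstream (chr7:20284902-20285205, score 279, interval of 111 to 158 fragments against 40.6). Neither is in the class list. The Rad21 peak nearest to Apoe was that of the strong CAC site, with its edge 1793 bp away. Apoc1 showed the reverse, a CNC site in an intron (chr7:20277612-20277919, score 122, 93 fragments against 36.8). The edge of this site was 26 bp and its summit 186 bp from a start. The nearest CTCF peak, a lone CTCF site of score 618 at chr7:20279728-20280073, had its edge 1721 bp away. Apoc2 held 3 CNC sites. The one at its upstream start, which lies in a coding exon of Apoc4 and is shared by both genes (chr7:20266419-20266935), had a score of 193 with 85 fragments, and those at chr7:20262145-20262355 and chr7:20263906-20264220 had scores of 57 and 49. A further CNC site at chr7:20280121-20280495, with a score of 58, had its summit 2374 bp upstream of Apoc1. The nearest CTCF peak to Apoc2, a lone CTCF site in its intron at chr7:20264407-20264916, was 1117 bp from a start with a score of 129.

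At Apob a CNC site covered the gene start (chr12:7984140-7984935), with a score of 379 and 116 fragments against a local background of 24.4, the strongest CNC site of all 5 loci. It lay next to the Rad21 peak of the (−) strand anchor but did not reach the CTCF peak there. The CTCF peak nearest to any annotated start of Apob was a weak one, 348 bp from an internal start, with a score of 68 (chr12:8019513-8019763). Apoa2 had its nearest peaks 2125 bp (CTCF, score 1378) and 2132 bp (Rad21, score 528) upstream, at a CAC site on the (+) strand (chr1:173152683-173153060). At the upstream start of Apoh a broad Rad21 peak of score 367 with 90 fragments (chr11:108204079-108205603) spanned 2 CTCF peaks of scores 154 and 470 on either side of the start. Prkca starts there on the other strand, and its start was closer to the summits of that Rad21 peak and of the stronger CTCF peak (66 and 33 bp) than the Apoh start (450 and 483 bp). An internal start of Apoh had a CTCF score of 102 and a Rad21 score of 154, with a CNC site of score 72 at chr11:108257103-108257344. The Apoh span held 6 CNC sites in all, with scores from 51 to 89.

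The sequences under the strongest CNC site of the Apoa1 cluster and of the single genes are given on the (+) strand of mm9, around the Rad21 summit. The first lies in an intron of Sik3, 21602 bp upstream of Apoa1, and holds none of the searched words for liver factors. The second is the part of the Apob window outside annotated UTRs; capitals mark the start codon of Apob, so the summit lies in the first coding exon.

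Apoa1 cluster CNC site, chr9:46014961-46015161: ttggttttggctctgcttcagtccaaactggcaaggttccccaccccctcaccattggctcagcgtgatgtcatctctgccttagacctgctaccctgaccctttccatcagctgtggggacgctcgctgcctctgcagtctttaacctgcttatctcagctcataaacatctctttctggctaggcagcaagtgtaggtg
Apob CNC site, chr12:7984585-7984725: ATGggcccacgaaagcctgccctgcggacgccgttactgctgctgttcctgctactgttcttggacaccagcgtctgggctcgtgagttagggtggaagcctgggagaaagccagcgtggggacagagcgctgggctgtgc

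Words for 4 liver factors were searched on both strands within 150 bp of each Rad21 summit: TGTTTAC (FOXA), CAAAGTC (HNF4), GTTAAT (HNF1) and TTGCNNAA (C/EBP), none of which contains another. Of the 29 CNC sites, 3 held the C/EBP word (10.3%, against 17.3% of all CNC sites), 2 the HNF4 word (6.90%, against 8.10%), and none the FOXA word (6.59% of all) or the HNF1 word (9.41% of all). Of the 59 Rad21 peaks with CTCF, 11 held the C/EBP word (18.6%, against 11.9% of all), 6 the HNF4 word (10.2%, against 5.01%), 2 the HNF1 word (3.39%, against 7.00%) and 1 the FOXA word (1.69%, against 4.02%). The CNC site with an HNF4 word nearest to a gene start was that at the internal start of Apoc2. These counts are small, and a missing word says only that these letters are not in the window.

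The 47 classified sites with Rad21 had a median of 0.558 Rad21 fragments per CTCF fragment, and values from 0.0897 to 1.91, compared with a median of 0.486 over all such sites, of which the middle 80% lay between 0.196 and 1.0. By locus the medians were 0.721 in the Apoe cluster (9 sites), 0.717 at Apoh (9 sites), 0.600 at Apoa2 (11 sites), 0.443 at Apob (3 sites) and 0.426 in the Apoa1 cluster (15 sites). The value of 1.91 belonged to the CTCF peak before the upstream start of Apoh, which shares its Rad21 peak with the next CTCF peak. Of the 39 sites with a motif, the Rad21 summit was displaced toward the 3′ end of the motif in 26 (66.7%), against 68.3% of 35443 sites, by a median of 13 bp against 17 bp.

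**Figure D5:**
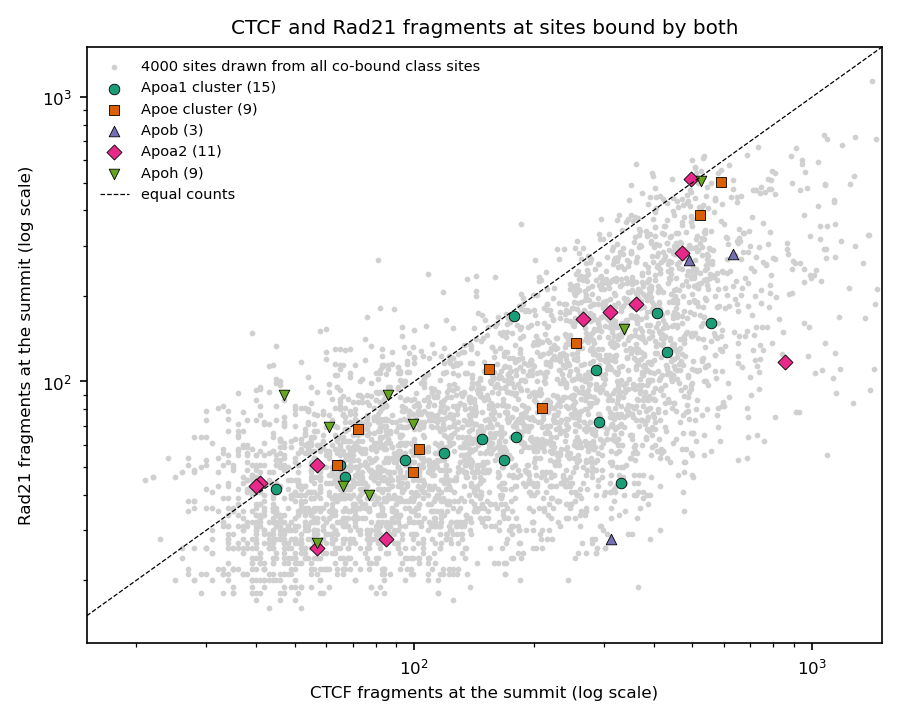
Rad21 against CTCF fragments at the summit (both log axes) for the 47 classified sites with Rad21 in the 5 loci (colored symbols) over 4000 such sites drawn from the whole list (gray); the broken line marks equal counts. The anchor in Apoh with 506 Rad21 fragments sits near the line, and the second Apob anchor, with 28, far below it.

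Other genes of lipoprotein metabolism were taken as a hand-made list of 29 minor apolipoproteins, lipases, lipoprotein receptors, lipid transporters and their regulators (among them Mttp, which loads lipid onto Apob). Of these, 23 had a Rad21 peak within 1 kb of a start (79.3%, interval 61.6 to 90.2, against 52.3% of all genes). A CTCF peak lay there for 20 (69.0%, interval 50.8 to 82.7, which holds the 55.1% of all genes), and a CNC site for 9 (31.0%, interval 17.3 to 49.2, against 8.94%). With peaks of score at least 100 the counts were 20 for Rad21, 16 for CTCF and 5 for CNC sites, against 44.4%, 50.1% and 2.9% of all genes. Their median densities, 10.2 CTCF and 9.67 Rad21 peaks per 100 kb, lay between those of the 10 apolipoprotein genes, 14.2 and 15.2, and those of all genes. CNC density had medians of 5.64, 1.60 and 0.218 sites per 100 kb in the 10 genes, in the 29 and in all genes. With CNC sites of score at least 100 these medians were 1.63, 0.801 and 0.0, and Apoa5, Apoa2 and Apoh had no such site. The windows of genes in the same cluster overlap. All medians of the 10 genes, for CTCF, Rad21 and CNC sites, therefore count sites of both clusters several times. The CNC site over a start of Apoc4, one of the 29, is the one it shares with Apoc2. The nearest flanking anchors were convergent for 12 of the 29 genes (41.4%, interval 25.5 to 59.3, which holds the 32.8% of genes with an anchor on both sides).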

How the data were processed

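The authors merged the reads of each factor, mapped them to mm9 with Bowtie2, kept uniquely mapped reads, called peaks with MACS2, and removed blacklisted regions and peaks of PCR duplicates alone, per the study's methods. The deposited peak score is the −log10 q-value times 10. The deposited fold is the ratio of summit pileup to local background, each plus 1, and the deposited −log10 p column is the Poisson p-value of the summit. The deposited class list gives the authors' CTCF motif score, strand and class.

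The summit count and the background behind it were solved from the fold and p-value of each peak. The count was within 0.01 of a whole number for 99.996% of CTCF and 99.997% of Rad21 peaks. Motifs were placed by scanning each site with MA0139.1, and the rebuilt score was within 0.1 of the deposited one at all 43337 sites with a motif (same strand at 43327). The scripts were tested on simulated data. Depth per library is not given in the lists, whose median summit holds 69 CTCF and 47 Rad21 fragments, and read counts without molecular identifiers are not independent molecules.

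Peaks were assigned to windows of 50 kb around GENCODE vM1 gene spans. For the nearest peak to a start and for peaks within 1 kb of a start, distances were taken from the peak edge unless a summit is named. Other distances were taken from the summit. Named sites were, per locus, the strongest peak of each factor, every anchor, the peak nearest to each start, and each CNC site in a gene or within 5 kb of a start. The strong CAC sites in Apoa1 and downstream of Apoa4, the sites between Apoa4 and Apoa5, at 4931429L15Rik and at Adamts4 that are no anchors, and the anchors outside the windows were named after their values were seen. At Apoa2 2 sites, and some genes of the lists, are not reported here. The genes, lists and rules were chosen with earlier results of these data known. Flags for other proteins in the class list were not used. The work was done in Python 3.11.15 (SciPy 1.17.1, NumPy 2.4.6, pysam 0.24.0, pandas 2.3.3) and samtools 1.23.1.

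Alternatives were windows of 25 and 100 kb, a score of at least 100, membership by summit, 50% reciprocal overlap, summits within 100 bp, starts within 2500 bp, and gene span ends only.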

Additional observations from a re-analysis of the deposited data

How the results depend on the processing

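Of 29 alternative values for 7 results, 25 stayed within the counting interval of the reported value, or within 1.5 times a count, and 4 moved, all under a peak score of at least 100. With that limit the densities were 9.08 CTCF and 6.74 Rad21 peaks per 100 kb, 59.7% of CTCF peaks overlapped a Rad21 peak (64.4% of all such CTCF peaks), and 21.7% of Rad21 peaks overlapped no CTCF peak (15.5% of all). The limit removes weak peaks by its construction. The order of the loci also moved: with 100 kb on each side the Apoe cluster came first in CTCF density (14.1 per 100 kb, against 13.6 for the Apoa1 cluster) and Apoh last (6.27, against 6.69 for Apob); the cause was not tested. Ranks of single genes under these windows and scores, and CNC densities, start counts and the values over all peaks and genes at that score, were added after seeing the data. The Rad21 rank of Apoc3 was 15 with 25 kb and 67 with 100 kb on each side. No library could be left out and no paired analysis was possible because the lists are pooled. Each locus holds only 7 to 25 CTCF peaks, which limits what can be read from its density.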
